A study of Mus musculus with 6 samples.

Results

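The cytosolic ribosomal protein genes were examined in B16F10, a mouse melanoma cell line, as genes whose symbol has the form of a large-subunit (Rpl), small-subunit (Rps), stalk (Rplp) or Rpsa gene and whose full name contains ribosomal protein but neither kinase nor pseudogene. The rule found 87 genes among the 27179 rows of the deposited table. Of these, 77 encode the standard proteins of the ribosome and are termed canonical here, 31 of the small 40S subunit and 46 of the large 60S subunit. The other 10 have symbols that mark them as relatives of a canonical gene and are termed paralogs.

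Wild-type B16F10 cells had been cultured for 6 h with 0.01% ozonated olive oil (OZO, n = 3) or with 0.01% plain olive oil as the control (OLO, n = 3), and RNA of each culture was sequenced as 1 library. The labels name the tissue as skin and the cell type as melanoma. The value analysed is the authors' average, for each gene, of log2 CPM, the read count of the gene scaled to the size of its library, over all 6 libraries, so OZO and OLO cultures enter it together. It carries no spread between cultures, and the response to OZO was not analysed here. The levels below therefore describe cells of which 3 of 6 cultures had received OZO.

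Each cytosolic ribosome is built from ribosomal RNA and one copy of nearly every ribosomal protein, the acidic stalk proteins being the exception with more. Their mRNAs typically begin with a 5′ terminal oligopyrimidine (TOP) tract, a C at the cap followed by a run of C and T, through which growth signalling by mTOR and the binding protein LARP1 control their translation together. In melanoma, as in other dividing cells, ribosome production takes up a large part of the transcription of the cell. Many ribosomal protein genes also carry small nucleolar RNA genes in their introns and have left numerous processed pseudogenes in the mouse genome.

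To show what the TOP tract looks like in these genes, the 30 bases around the RefSeq start (15 before and 15 from the start on, build GRCm38.p6) are printed for 8 members that hold a tract within 5 bases of the start. Capitals mark the unbroken run of C and T that lies at the start.
Rpl28: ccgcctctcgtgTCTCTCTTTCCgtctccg
Rpl35: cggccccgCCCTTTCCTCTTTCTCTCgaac
Rpl35a: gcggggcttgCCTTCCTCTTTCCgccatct
Rpl15: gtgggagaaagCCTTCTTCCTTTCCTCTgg
Rpl38: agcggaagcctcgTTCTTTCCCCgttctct
Rps10: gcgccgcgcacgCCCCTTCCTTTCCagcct
Rps6: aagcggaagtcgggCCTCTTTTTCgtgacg
Rps18: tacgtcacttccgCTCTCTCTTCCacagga
These windows lie as follows: Rpl28 at chr7:4792950-4792979 (plus strand), Rpl35 at chr2:39005117-39005146 (minus strand), Rpl35a at chr16:33056467-33056496 (plus strand), Rpl15 at chr14:18270972-18271001 (minus strand), Rpl38 at chr11:114668565-114668594 (plus strand), Rps10 at chr17:27635230-27635259 (minus strand), Rps6 at chr4:86857353-86857382 (minus strand), Rps18 at chr17:33955651-33955680 (minus strand). Their runs of C and T were 10 to 18 bases long, longest in Rpl35.

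For contrast, the same windows are printed for the 2 members with the highest level per kb, for the lowest canonical member, for Rps28, another member at the low end, and for the testis-associated paralog Rpl10l, with any tract again in capitals.
Rps2: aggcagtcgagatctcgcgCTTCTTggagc
Rps3a1: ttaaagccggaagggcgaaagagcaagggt
Rpl39: cctaagctccgCCTCTagcgacttcttcta
Rps28: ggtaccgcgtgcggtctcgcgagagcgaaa
Rpl10l: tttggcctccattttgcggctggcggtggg
These windows lie as follows: Rps2 at chr17:24720048-24720077 (plus strand), Rps3a1 at chr3:86142654-86142683 (minus strand), Rpl39 at chrX:37085208-37085237 (minus strand), Rps28 at chr17:33824548-33824577 (minus strand), Rpl10l at chr12:66284387-66284416 (minus strand). Rps3a1, Rps28 and Rpl10l had no such tract within 5 bases of the annotated start. In Rps2 it began 4 bases after the start and in Rpl39 it was 5 bases long. Annotated starts can be a few bases away from the base where transcription begins, which was not measured here.

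Taken over all members, 65 of 87 had a promoter window in the RefSeq table. A C followed by 4 or more C or T exactly at the start was found in 14 of the 65, or 21.5% (Wilson 95% interval 13.3% to 33.0%). Among all genes in the table it was found in 813 of 27025, or 3.01%, and among genes at or above 1 CPM in these cells in 287 of 9373, or 3.06%. With the tract allowed to begin within 5 bases either side, 30 of 65 members held one (46.2%), against 21.2% of all genes and 23.9% of genes at or above 1 CPM. The median was 206 CPM per kb of the longest transcript in the 27 canonical members with a tract within 5 bases and 335 CPM per kb in the 30 without. Per kb of the principal transcript the medians were 355 and 394 CPM.

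Other short motifs were searched on both strands of the 300-base promoter windows (250 before and 50 after the start), and a gene with several windows counted if any held the motif. CCGGAAG, the core recognised by ETS-family factors, was present in 26 of 65 members, or 40%, against 9.93% of all genes and 21.2% of genes at or above 1 CPM. AAGATGGC, part of the YY1 motif, was present in 9.23% of members, 3.19% of all genes and 5.62% of genes at or above 1 CPM. TATAAA, the TATA box, was present in 12.3% of members, 15.7% of all genes and 8.34% of genes at or above 1 CPM. GGGCGG, the GC box, was present in 61.5%, 38.2% and 70.2% of these groups. CTTTCC, which is made of pyrimidines only and so can lie within a TOP tract, was present in 52.3%, 29.3% and 30.6%. Whether the places found lay in such a tract was not measured.

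As a group, the ribosomal protein genes were among the most abundant mRNAs of these cells. In all, 81 of the 87 members reached 1 CPM, against 43.7% of all rows. The same 81 reached 10 CPM, 68 reached 100 CPM and 5 reached 1000 CPM. Together the members held 3.18% of the summed CPM, of which 1.28% came from the 40S genes, 1.84% from the 60S genes and 0.0548% from the paralogs. The median member stood at the 97.6th percentile of all rows by CPM and at the 99.3rd percentile per kb of transcript. No member was among the 20 highest rows by CPM, and the highest, Rps2, ranked 46. Per kb of the longest transcript, a scale that corrects for length but depends on the isoform chosen, 33 of the 100 highest rows were members and Rps3a1 ranked 16.

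The depth behind these values follows from the table itself. The 6025 genes without a read share 1 lowest value, which corresponds to a geometric mean library size of 19641945 reads after scaling, so 1 CPM equals about 19.6 reads per library. The 75 canonical members reported here other than Rpl39 had 786 to 24681 reads per library. Counting error of the average over 6 libraries was therefore at most 1.46% for each of these genes. This covers counting error only. The difference between neighbours in the order of levels could not be set against the spread between cultures.

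The labelled cell type was compared with marker genes. All 8 melanocyte lineage markers were present, from 109 CPM for Sox10 to 7052 CPM for Dct. None of the 4 leukocyte and none of the 4 keratinocyte markers reached 1 CPM. Of the others, 1 of 3 endothelial and 3 of 4 fibroblast markers did, the highest being Pdgfra at 3.28 CPM.

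**Figure D1:**
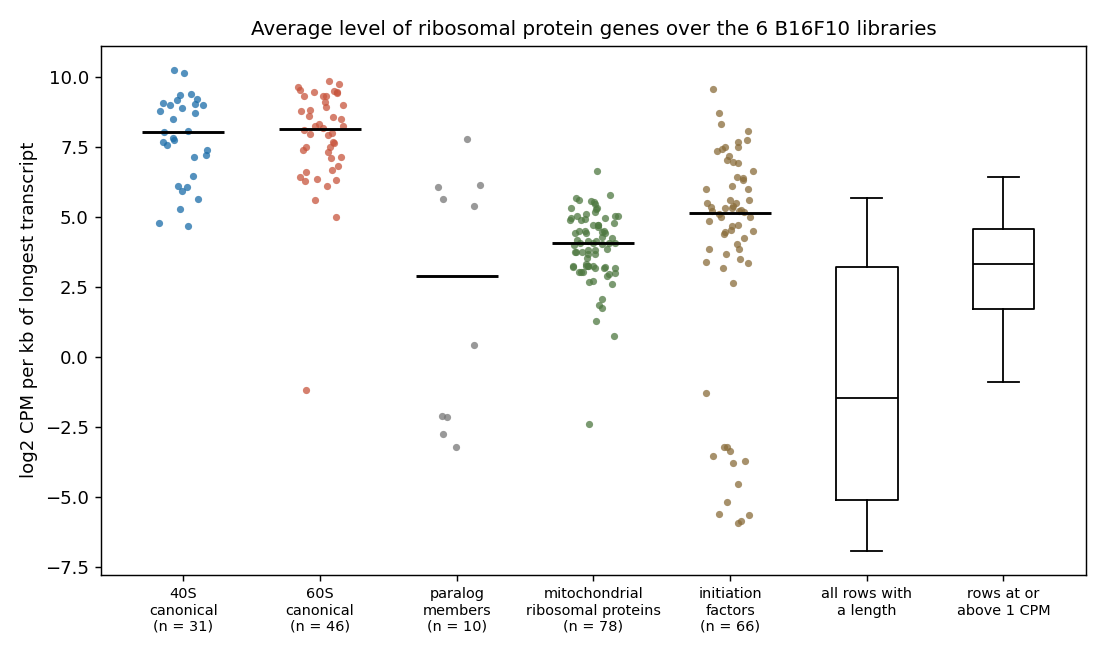
Level of the ribosomal protein genes beside other genes. Each point is a gene, the vertical axis is log2 CPM per kb of its longest transcript averaged by the authors over the 6 libraries, and the black line is the group median. The 2 boxes show the median, quartiles and 5th to 95th percentiles of all rows with a length and of rows at or above 1 CPM. Both canonical groups centre near 8, a single 60S gene (Rpl39) sits below 0, and the paralogs fall into a high and a low set.

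Levels varied widely among the genes of both subunits. The median was 265 CPM per kb for the 31 genes of the 40S subunit, with quartiles of 113 and 523. It was 287 CPM per kb for the 46 genes of the 60S subunit, with quartiles of 139 and 550. The difference of the medians was 0.11 on the log2 scale, and its sign turned with the transcript length used (-0.18 with the median transcript and -0.08 with the coding length). The 40S genes averaged 402 CPM each and the 60S genes 390 CPM each.

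Mitochondrial ribosomal proteins, which build the separate ribosome inside mitochondria, were far lower. Of the 78 genes of that group 77 reached 1 CPM, and their median was 16.8 CPM per kb, with quartiles of 9.38 and 29.2. The canonical cytosolic median was 15.98 times as high. In all, 60 of the 77 canonical members lay above every mitochondrial ribosomal protein gene, the highest of which was Mrps21 at 100 CPM per kb. The 72 genes with an Eif symbol and translation initiation factor in their name had a median of 35.9 CPM per kb over the 66 with a length. The canonical median exceeded it 7.48 times. This group was not cleaned as the canonical members were, which hold no kinases or paralogs. It includes Eif2ak kinases, Eif4ebp binding proteins and low Eif1ad relatives, such as Eif1ad2 at -4.56 log2 CPM per kb. Of these 72, 54 reached 1 CPM. Their interquartile range was 2.96 on the log2 scale, against 2.66 for all 87 members and 1.93 for the canonical members. No test was made of these differences, since all values come from a single average over the libraries.

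Among the canonical members the interquartile range of 1.93 on the log2 scale compares with 8.33 for all rows with a length and 1.64 for the mitochondrial ribosomal protein genes. Rows at or above 1 CPM had quartiles of 1.73 and 4.58 log2 CPM per kb, against 7.11 and 9.04 for the canonical members. The same 75 members as above, stalk genes included, spanned 44.5-fold per kb of the longest transcript. Of the 77, 39 lay within 2-fold of the median of 268 CPM per kb and 67 within 4-fold. Part of this spread moved with the length chosen. With the coding length of the principal transcript (the main annotated isoform) 57 of 77 lay within 2-fold of the median, and the interquartile range fell from 1.93 to 1.31 on the log2 scale.

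The 10 highest canonical members per kb of the longest transcript included 2 of the small subunit. Rps3a1, a protein of the 40S platform, was highest at 1233 CPM per kb, 4.59 times the median. Rps2, which lies at the mRNA entry site, followed at 1149 CPM per kb. The other 8 belonged to the 60S subunit. Rpl19 stood at 948 CPM per kb and Rpl23a, a protein of the tunnel exit where the signal recognition particle docks, at 871. Rplp0, the base of the stalk, stood at 802 and Rpl10, which is joined late in 60S maturation, at 755. Rpl8, which lies close to the catalytic centre, stood at 727 and Rplp1 at 720. Rpl26 at 710 and Rpl4 at 700, both of which line the exit tunnel region, closed the group. Of these 10, 7 were also among the 10 highest per kb of the principal transcript, but only 3 per kb of coding length.

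At the low end Rpl39 stood apart from every other canonical member reported here. Rpl39, a very short protein that lines the exit tunnel, had 0.270 CPM, equal to 4.80 reads per library once the 0.5 reads that the authors' averaging adds to each count are taken off. Its level was 0.441 CPM per kb, 609 times below the canonical median. The gene lies at chrX:37082520-37085402 on the minus strand (GENCODE M21, mm10). None of the 150-base windows of its transcript was found in another annotated gene, but 19 annotated genes, 18 of them pseudogenes, were near copies of its coding sequence, meaning at least 90% identity over at least 80% of it. Whether reads of Rpl39 were assigned to these copies or dropped was not tested.

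Another 8 members at the low end ranged from 27.7 to 69.5 CPM per kb of the longest transcript. Rps28 had 27.7 CPM per kb and Rpl21, which has 77 near copies, the most of any member, had 32.4. Rps20 had 39.3, Rpl34 48.5, Rps12 50.6, Rps15a 61.6, Rps13 67.6 and Rps19, the gene most often mutated in Diamond-Blackfan anaemia, 69.5. For several of these the longest annotated transcript is long: 3706 bases for Rps20 and 5179 for Rps15a. Per kb of coding length Rps15a stood at 818 CPM, above the canonical median, whereas Rpl21, Rpl34, Rps28 and Rps12 remained among the 10 lowest. Among these 8 the share of 150-base windows found in other annotated genes ran from 1.24% in Rps15a to 87.2% in Rps12. Whether their reads were assigned to other genes or dropped was not tested.

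**Figure D2:**
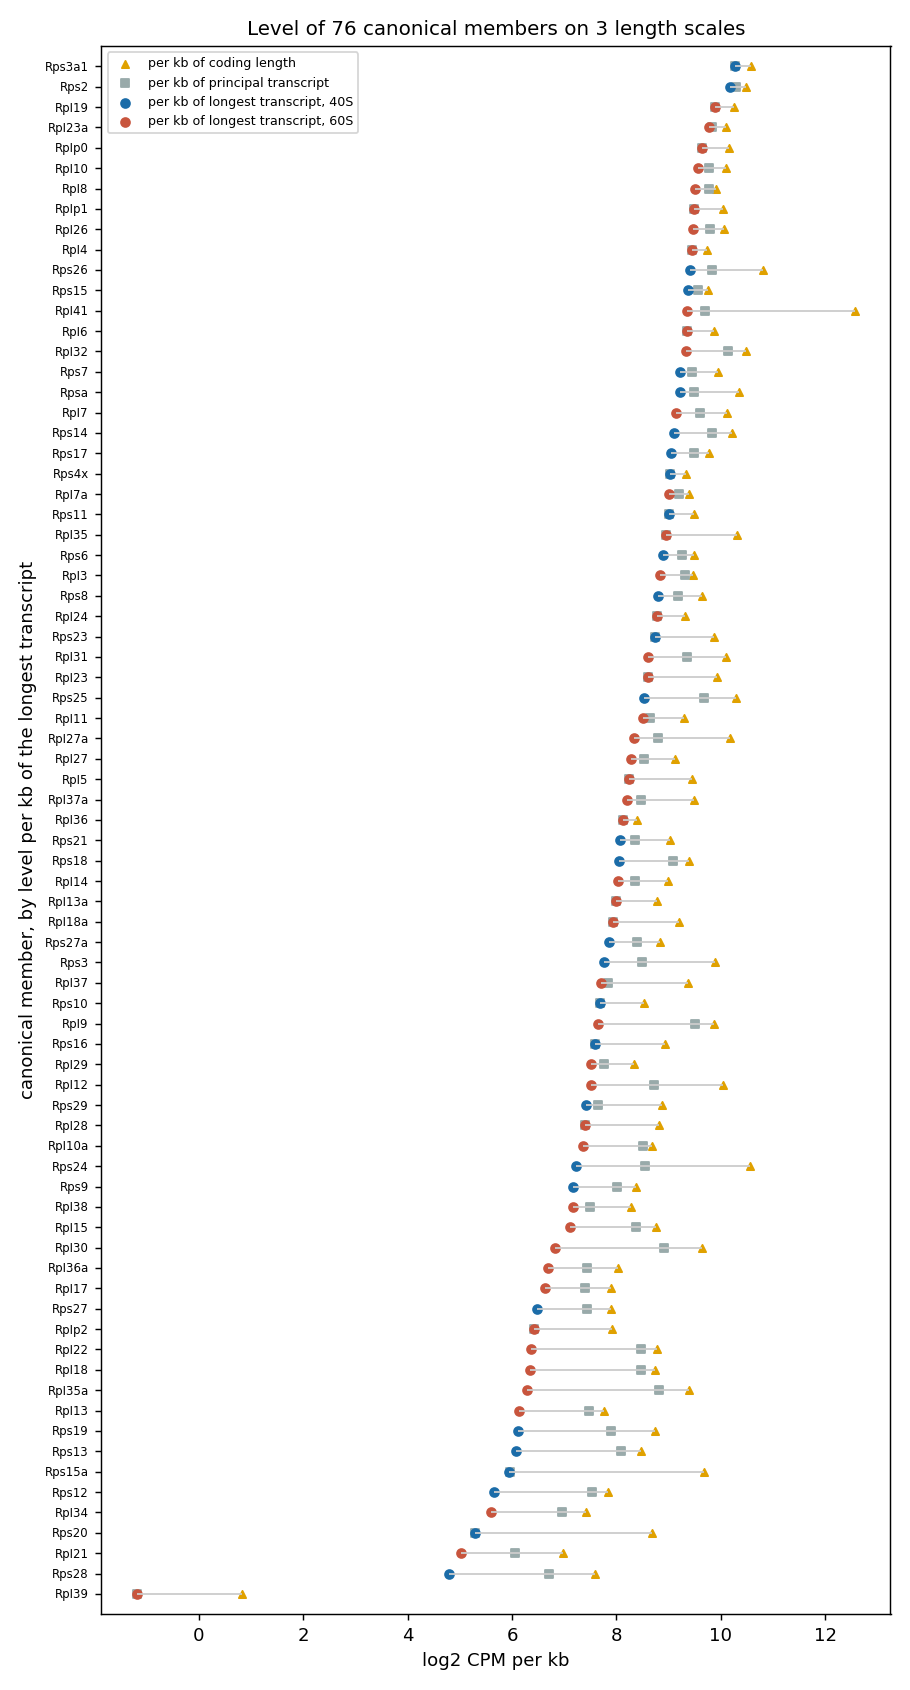
The canonical members reported here, in order of level. The horizontal axis is log2 CPM per kb, averaged over the 6 libraries. Circles use the longest transcript (blue for 40S, red for 60S), squares the principal transcript and triangles the coding length, and the grey line joins the values of 1 gene. Rpl39 lies far to the left on all 3 scales, and Rpl41, with a coding length of 75 bases, is furthest right by triangles.

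Members with well-known separate roles lay across this range. In the stalk, which recruits the translation factors that use GTP, Rplp0 (802 CPM per kb) and Rplp1 (720) were high, Rpl12, which lies beside the stalk base, had 182, and Rplp2, the partner of Rplp1, had 86.1. The order was the same per kb of the principal transcript, with Rpl12 at 419 CPM. Per kb of coding length Rplp0 (1145 CPM) stayed highest and Rplp2 (241) lowest, while Rpl12 (1051) and Rplp1 (1050) were nearly equal. Rpl5 and Rpl11 form a particle with 5S ribosomal RNA that also binds Mdm2 and restrains it, and they had 304 and 364 CPM per kb. Rpsa, also known as the laminin receptor, had 592 CPM per kb. Rps6, the target of S6 kinase, had 477, and Rps14, the gene linked to the 5q- syndrome, had 548. Rps25, needed by several viral internal ribosome entry sites, had 367 and Rpl38, needed for translation of some Hox mRNAs, had 143. Rpl22 had 81.8.

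Ribosomal proteins made as fusions and the scaffold protein Rack1 complete the ribosome. Rps27a, made as a fusion with ubiquitin, had 231 CPM per kb. Outside the rule, Fau, a fusion of a ubiquitin-like protein with Rps30, had 109 CPM per kb and Rack1 had 68.0. Both lay within the range of the canonical members.

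The 10 paralogs split into a set that the cells contained at appreciable level and a set near the limit of detection. The first set had 36.4 to 185 CPM and comprised Rpl6l, Rpl7l1, Rpl22l1, Rpl36al and Rps27l. The second had 0.141 to 0.533 CPM and comprised Rps4l, Rpl3l, Rpl39l, Rpl10l and Rpl32l.

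Rps27l, a p53-responsive relative of Rps27, was the only paralog above its parent per kb of the longest transcript. It had 224 CPM per kb of the longest transcript against 88.9 for Rps27, a 2.52-fold difference, which was 1.49-fold per kb of the principal transcript. Of the 150-base windows of Rps27, 98.0% were also found in other annotated genes, and in Rps27l none was. Rpl36al, an autosomal relative of the X-linked Rpl36a, had 67.1 CPM per kb against 103. On the principal transcript it reached 0.943 of its parent, while per kb of coding length it lay above it by 0.04 on the log2 scale. Of the 150-base windows, 81.1% in Rpl36a and 53.6% in Rpl36al were shared with other annotated genes. Rpl22l1, which can replace Rpl22 in the ribosome, had 50.5 CPM per kb against 81.8. Rpl7l1 was 7.93 times below Rpl7 and Rpl6l was 15.5 times below Rpl6. In GENCODE, Rpl6l, Rpl32l and Rps4l are annotated as processed pseudogenes. Of the windows of Rpl6l, 47.6% were shared, and none of those of Rpl32l and Rps4l.

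In the low set the paralogs were nearly absent while 4 of the 5 parents were abundant. Rpl3l, which replaces Rpl3 in heart and skeletal muscle, was 4248 times below Rpl3, which had 458 CPM per kb. Rpl10l, an autosomal relative of X-linked Rpl10 used in male germ cells, was 3275 times below Rpl10. Rps4l was 3481 times below Rps4x and Rpl32l 480 times below Rpl32. For such low genes only certain sets of whole counts give the observed average, and the fewest reads over the 6 libraries that fit it were 15 for Rps4l, 21 for Rpl3l, 28 for Rpl10l and 61 for Rpl32l. They were therefore detected, but their levels rest on few reads.

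Rpl39l, a testis-enriched relative of Rpl39, was the exception, because its parent was as low. The fewest reads that fit were 21 for Rpl39l and 33 for Rpl39. Many sets of counts fit either average, so the actual totals are not known and the order of these genes was not tested.

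To show how far a paralog and its parent can differ in sequence, the coding sequences of the pair with the lowest parent and of the pair in which the paralog was higher are printed from the GENCODE M21 transcripts, without the stop codon and with the bases that differ within a pair in capitals.
Rpl39: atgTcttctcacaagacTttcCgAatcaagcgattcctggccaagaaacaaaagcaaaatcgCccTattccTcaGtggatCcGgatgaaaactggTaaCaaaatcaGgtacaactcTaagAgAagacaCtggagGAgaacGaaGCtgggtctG
Rpl39l: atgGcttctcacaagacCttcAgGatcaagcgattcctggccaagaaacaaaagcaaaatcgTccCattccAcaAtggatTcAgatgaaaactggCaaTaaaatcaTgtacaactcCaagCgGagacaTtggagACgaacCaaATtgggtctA
Rps27: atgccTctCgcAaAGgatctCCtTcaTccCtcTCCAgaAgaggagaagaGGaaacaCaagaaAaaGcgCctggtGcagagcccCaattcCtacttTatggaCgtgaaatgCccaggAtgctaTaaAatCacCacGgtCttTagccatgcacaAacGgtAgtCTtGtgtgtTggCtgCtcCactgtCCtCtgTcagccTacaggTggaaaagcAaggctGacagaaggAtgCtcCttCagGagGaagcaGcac
Rps27l: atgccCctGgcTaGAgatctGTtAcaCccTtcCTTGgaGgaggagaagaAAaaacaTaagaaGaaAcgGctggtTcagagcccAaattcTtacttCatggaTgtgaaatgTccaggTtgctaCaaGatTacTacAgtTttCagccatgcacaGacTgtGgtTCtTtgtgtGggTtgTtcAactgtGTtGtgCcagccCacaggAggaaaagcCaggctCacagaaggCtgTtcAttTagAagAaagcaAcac
Rpl39 and Rpl39l differ at 23 of 153 bases (85.0% identity) and Rps27 and Rps27l at 60 of 252 (76.2%). Any 150-base stretch of the coding sequence holds at least 22 of these differences between Rpl39 and Rpl39l and at least 31 between Rps27 and Rps27l. Among the other pairs with an annotated coding sequence, identity with the parent was 73.0% for Rpl3l, 50.1% for Rpl7l1, 84.7% for Rpl10l, 66.9% for Rpl22l1 and 87.7% for Rpl36al.

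**Figure D3:**
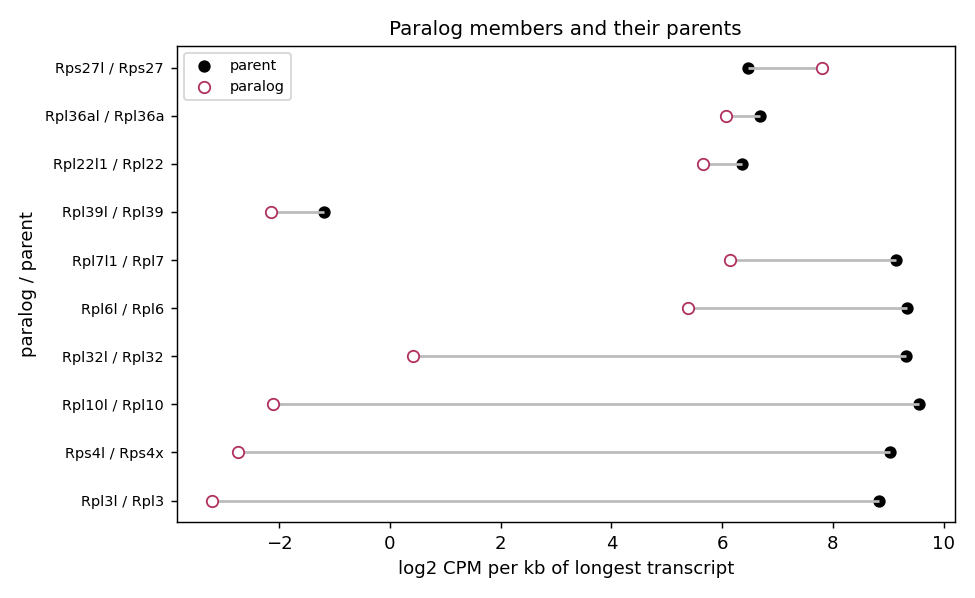
Paralogs and parents. The horizontal axis is log2 CPM per kb of the longest transcript, averaged over the 6 libraries. Filled circles are parents, open circles paralogs, and a line joins each pair. Rps27l is the only paralog to the right of its parent, and Rpl39 is the only parent below 0.

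Copies of these genes elsewhere in the genome could take up or lose reads, so sequence shared with other annotated genes was measured for each canonical member. The other genes include those that overlap a member at its own locus, so the share of windows does not measure distant copies alone. In Rpl13a, for example, the 52.7% of windows shared came only from Gm45713, which overlaps its exons. The median share of 150-base windows found exactly in other annotated genes was 29.2%, and 21 of 77 members shared at least 50%. The highest shares were in Rps27 (98.0%) and in Rpl10 (90.9%). The canonical members had 998 near copies in all, of which 96.2% were annotated as pseudogenes, and 37 members had 10 or more. Rps3 and Rpl8 had none.

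Across the 77 genes, Spearman's rho of log2 CPM per kb was -0.02 with the share of shared windows and -0.01 with the number of near copies, where the genes all come from the same libraries. The 21 members that shared at least 50% of windows had a median of 254 CPM per kb, from 50.6 to 871. The 9 that shared none had a median of 268 CPM per kb, from 0.441 to 727, which was 370 without Rpl39. Per kb of coding length the median was 553 CPM in the members that shared at least 50% and 713 in those that shared none, or 786 without Rpl39.

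**Figure D4:**
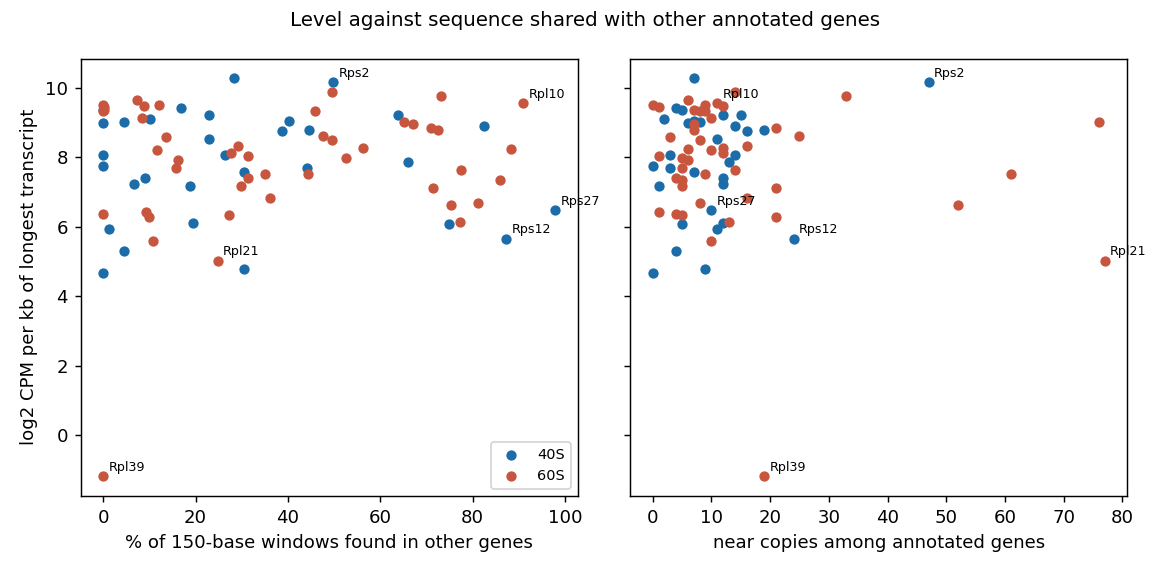
Level against shared sequence. The vertical axis is log2 CPM per kb of the longest transcript, averaged over the 6 libraries. The horizontal axis is the percent of 150-base windows found in other annotated genes, overlapping ones included (left), or the number of near copies among annotated genes (right). Each point is a canonical member, blue for 40S and red for 60S. Levels above 9 occur both among members that share no window and at 90.9% (Rpl10).

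Rows named as pseudogenes of cytosolic ribosomal proteins held few reads in comparison. They were picked by name alone, so they need not include all of the 960 near copies annotated as pseudogenes. The reads held by pseudogene copies not so named were not summed. Of the 74 rows picked by name, 58 had at least 1 read and 12 reached 1 CPM. Their sum of 215 CPM was 0.693% of the sum over the members. Of the 69 whose parent is a member, 59 were below 1% of the parent's CPM. The highest of the others, chosen after its value was seen, was Rpl17-ps10, which had 123 CPM against 131 CPM for Rpl17, itself with 75.2% of windows shared. Of the remaining 9, 8 had 2.38% to 9.97% of the parent's CPM, and the other, Rps4l-ps, had too few reads for a share. Likewise chosen after their values were seen, the retrogene rows Rps27rt and Rpl37rt had 24.8 and 35.2 CPM, or 41.5% and 18.4% of the CPM of Rps27 and Rpl37, whereas Rps23rg1 had 3.70 CPM, or 0.923% of Rps23. How reads with several matches were counted is not given in the sources used here, so the true division between gene and copy was not tested.

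Overlap with other genes and small RNA content also varied. In 40 of 77 canonical members no exon base overlapped another annotated gene. The largest overlaps were 66.2% in Rpl35, with Arpc5l and Wdr38, and 62.3% in Rpl23a. The strand setting used for counting is not given in the sources used here, and reads of overlapping genes could not be told apart. In all, 30 canonical members held 58 small nucleolar RNA genes, up to 5 in Rpl4. Their median was 278 CPM per kb, from 0.441 to 1233, against 268 for the 47 without.

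Other mRNAs known to carry a TOP tract were abundant as well. All 17 genes of the list, most of them translation factors and with Fau and Rack1 among them, reached 1 CPM, with a median of 222 CPM per kb. The highest were Eef1a1, which brings aminoacyl-tRNA to the ribosome, at 3569 CPM per kb and Npm1, a nucleolar assembly factor, at 980. The lowest were Naca, part of the nascent chain complex, at 42.1 and Eif3f at 49.5.

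Dedicated chaperones and import adaptors of ribosomal proteins were present as well. All 9 reached 1 CPM, and their median was 23.4 CPM per kb. The highest was Nap1l1, a histone and ribosomal protein chaperone, at 225 and next Bccip, which binds Rpl23, at 54.8. The lowest were Grwd1, the chaperone of Rpl3, at 8.002 and Tsr2, which carries Rps26, at 7.63. All 12 regulators of TOP mRNAs reached 1 CPM with a median of 34.4 CPM per kb, among them Cnbp at 459 and Larp4 at 70.2 as the highest and Mtor at 9.34 and Rps6kb2, an S6 kinase gene, at 2.33 as the lowest. The 3 ubiquitin ligase genes that act on unassembled ribosomal proteins or answer to them were also present, Mdm2 at 72.8, Huwe1 at 31.1 and Ube2o at 11.1 CPM per kb.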

How the data were processed

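RNA of 6 B16F10 cultures, 3 with OZO and 3 with OLO, was sequenced by the authors as paired reads of 150 bases and aligned to mm10 with HISAT2 2.1.0. The tools in the submitters' processing notes also include featureCounts 2.1.1 and limma 3.58.1. The deposited table gives, for each gene, the authors' average of log2 CPM over all 6 libraries. It also gives the authors' own comparison of OZO with OLO (log2 fold change, moderated statistic, p-value, adjusted p-value and log odds). That comparison was not used. No values of single libraries were analysed, so no test was made.

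Averages were converted to CPM and divided by the longest GENCODE M21 transcript. Read numbers were derived from the lowest average, to which voom adds 0.5 reads per gene. The derivation was tested on simulated data, and in 4855 low rows every product of counts was a whole odd number within 1e-06. Near copies were found with blastn 2.17.0. All 87 members matched GENCODE, and 65 matched the RefSeq promoter table (GRCm38.p6). Named genes were the 10 highest and 10 lowest canonical members per kb, all paralogs with their parents, members with known roles, and the highest 2 and lowest 2 of each list. Results for some genes are not reported here. The members and lists were chosen with earlier results of these data known.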

Additional observations from a re-analysis of the deposited data

How the results depend on the processing

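No paired analysis was possible because only averages over all 6 libraries were analysed. Hence the comparison of OZO with OLO was not run, neither with each replicate left out nor with DESeq2. Separately, the coding length of RefSeq proteins was replaced by that of GENCODE. Limits of 0.1 and 10 CPM kept 87 and 81 members. The median percentile of the members was 96.9 among rows with at least 1 read, 94.6 among rows at or above 1 CPM, 97.5 among rows with a symbol and 99.3 per kb. Their share of the summed CPM was 3.19% of rows with a symbol, and 3.20% with the rows named as pseudogenes added. The 60S minus 40S median difference (log2) was -0.18 with the median transcript, -0.0819 with no length correction, -0.0824 with the coding length, 0.0707 with the principal transcript, -0.0336 over all members and 0.16 without Rpl39, so its sign rested on the length and members used. The interquartile range among canonical members was 1.51 with the median transcript, 1.55 with no length correction, 1.31 with the coding length and 1.61 with the principal transcript. A pyrimidine tract within 5 bases of the start was found in 46.2% of members and one of 6 or more bases in 18.5%. Counting only symbols with -ps left 35 pseudogene rows. The coding and principal lengths, the percentile per kb and the value without Rpl39 were chosen after seeing the data. Precision is limited by the absence of a spread between cultures, and below 1 CPM by few reads.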
